A study of Mus musculus with 15 samples.

Results

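The Prader-Willi window of mouse chromosome 7 held 201 of the 97524 ChIRP-seq peaks once the peaks over the Snord115 array were set aside. These 201 were all peaks of 5 peak lists that lay in a window of 853 kb (mm9), from before Ube3a to just beyond the annotated Snrpn gene, and did not touch the 276870 bp of the Snord115 array, which held 458 further peaks. They reached from chr7:66452934-66453132 to chr7:67233008-67233080. Chromatin isolation by RNA purification (ChIRP) pulls an RNA out of cross-linked chromatin with biotinylated oligos, together with the DNA held by it. The oligos were directed at 116HG, the spliced long non-coding RNA made from the host transcript of the Snord116 snoRNAs, or were non-specific control (NSC) oligos. The libraries came from brains of adult mice: 116HG oligos on wild-type (WT) C57BL/6J brain in 2 replicates, NSC oligos on WT brain, and 116HG or NSC oligos on Snord116del (+/-) brain of strain B6(Cg)-Snord116tm1.1Uta/J. Each of the 3 control libraries was a single library, so no spread between control brains could be seen. In Snord116del mice the deletion was inherited from the father, and the maternal Snord116 DNA remained, so a loss of 116HG RNA and a loss of paternal Snord116 DNA cannot be told apart over the copies themselves.

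The Prader-Willi and Angelman domain is imprinted. In neurons a long transcript runs from the Snurf and Snrpn promoter on the paternal chromosome through Ipw and the Snord116 and Snord115 arrays toward Ube3a, and its introns are cut into snoRNAs while its spliced exons remain as host RNAs such as 116HG. Snrpn encodes the neuronal spliceosomal protein SmN, Snurf is a small reading frame at the start of the same transcript, and Ube3a, which lies in the opposite direction, encodes a ubiquitin ligase that is maternally expressed in neurons.

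The window was read in stretches. The Ube3a side, of 155566 bp, ran from the start of the window to the Snord115 array. The Snord116 stretch, of 139178 bp, held 27 annotated copies on the minus strand, and the Snrpn gene took 157718 bp. The remaining stretches lay between the arrays, between Snord116 and Snrpn, and beyond Snrpn, where no list had a peak.

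The sequences below are from mm9 and are written 5′ to 3′ on the strand named with each. Where a peak lay in no annotated gene, the strand is that of the Snord116 copies or of Ube3a. The first set shows peaks of WT 116HG replicate 1 that lay a short way upstream of 4 different Snord116 copies and that each overlapped a peak of replicate 2. They were picked by hand from the 10 replicate 1 peaks over the copies that overlapped replicate 2. Capitals mark the longest run of bases shared by all 4, which was 33 bases long. The run depends on that choice. The near edges of the 4 lay 248 to 263 bp upstream of the snoRNA, and those at copies 2 and 9 lay at 324 and 321 bp. Copy numbers count from the Snord115 side.
Peak upstream of copy 1, chr7:66929174-66929334, minus strand: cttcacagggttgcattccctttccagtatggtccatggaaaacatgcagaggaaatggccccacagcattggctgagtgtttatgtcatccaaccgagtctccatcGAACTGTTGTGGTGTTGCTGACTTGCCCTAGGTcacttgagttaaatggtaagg
Peak upstream of copy 3, chr7:66934224-66934383, minus strand: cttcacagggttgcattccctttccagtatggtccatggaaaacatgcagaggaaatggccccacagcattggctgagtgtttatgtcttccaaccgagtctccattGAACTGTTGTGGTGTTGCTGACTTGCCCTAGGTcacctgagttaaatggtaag
Peak upstream of copy 15, chr7:67022175-67022419, minus strand: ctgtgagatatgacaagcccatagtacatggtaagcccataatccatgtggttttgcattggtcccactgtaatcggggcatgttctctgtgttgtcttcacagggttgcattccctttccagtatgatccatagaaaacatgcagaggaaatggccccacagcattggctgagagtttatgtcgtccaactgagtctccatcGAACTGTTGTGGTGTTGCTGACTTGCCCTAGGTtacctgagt
Peak upstream of copy 25, chr7:67047440-67047605, minus strand: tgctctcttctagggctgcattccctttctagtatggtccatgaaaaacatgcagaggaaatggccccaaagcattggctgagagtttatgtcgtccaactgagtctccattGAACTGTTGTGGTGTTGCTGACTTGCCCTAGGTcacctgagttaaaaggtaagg

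The second set shows 1 snoRNA of the array for orientation. Capitals mark its box C letters, TGATGA, and each CTGA, the letters of box D, found on the strand shown.
Snord116 copy 3, chr7:66933879-66933972, minus strand: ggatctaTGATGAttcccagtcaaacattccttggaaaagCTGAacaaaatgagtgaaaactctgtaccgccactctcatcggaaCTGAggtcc
TGATGA and CTGA were each found in 26 of the 26 full-length copies of 94 bp. On either strand, TGATGA lay in 6.36% and CTGA in 56.6% of 8539 windows of 94 bp that tile the same region, so the short box D letters alone set no window apart.

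The third set shows the replicate 1 peaks between the arrays that overlapped a replicate 2 peak and had a middle found once in the genome. Capitals mark the bases inside both peaks.
Pair 1, chr7:66923209-66923370, minus strand: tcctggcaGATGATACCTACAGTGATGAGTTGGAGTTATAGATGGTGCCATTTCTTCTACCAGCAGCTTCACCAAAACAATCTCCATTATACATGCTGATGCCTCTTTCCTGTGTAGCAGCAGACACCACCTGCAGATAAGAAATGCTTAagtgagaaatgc
Pair 2, chr7:66924950-66925124, minus strand: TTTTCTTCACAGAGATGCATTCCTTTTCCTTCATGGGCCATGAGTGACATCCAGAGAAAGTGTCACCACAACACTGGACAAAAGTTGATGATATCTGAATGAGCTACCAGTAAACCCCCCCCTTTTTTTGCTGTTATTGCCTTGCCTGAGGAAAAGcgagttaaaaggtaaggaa

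The last set holds peaks seen in replicate 1 only. They are the peak of highest fold on the Ube3a side and, chosen after their values were seen, the peaks whose edges lay nearest to those of an exon of Ube3a and of Snrpn. Capitals mark annotated exon bases, all of them coding.
Ube3a side, highest fold, chr7:66452934-66453132, plus strand: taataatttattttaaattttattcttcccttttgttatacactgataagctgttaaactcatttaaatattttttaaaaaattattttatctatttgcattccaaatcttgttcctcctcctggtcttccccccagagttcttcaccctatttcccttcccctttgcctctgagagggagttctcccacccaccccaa
Ube3a exon peak, chr7:66540060-66540194, plus strand: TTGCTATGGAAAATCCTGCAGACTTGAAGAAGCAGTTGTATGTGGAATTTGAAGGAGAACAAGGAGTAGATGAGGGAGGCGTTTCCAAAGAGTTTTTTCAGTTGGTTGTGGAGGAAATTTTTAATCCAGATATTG
Snrpn exon peak, chr7:67129908-67130050, minus strand: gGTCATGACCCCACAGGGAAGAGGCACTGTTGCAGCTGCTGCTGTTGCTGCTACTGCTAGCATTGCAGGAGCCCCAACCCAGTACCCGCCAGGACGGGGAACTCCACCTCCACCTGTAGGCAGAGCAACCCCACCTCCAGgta

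The 201 peaks were unequally spread over the libraries. WT 116HG replicate 1 had 123 of its 78033 peaks here, 0.158% of the list (exact 95% interval, 0.131% to 0.188%). Replicate 2 had 70 of 11145, or 0.628% (0.490% to 0.793%), and WT NSC had 8 of 3648, or 0.219% (0.0947% to 0.432%). Both Snord116del libraries had 0, which allows a share of up to 0.234% of the 1280 peaks with 116HG oligos and up to 0.0878% of the 3418 with NSC oligos. The 116HG replicates therefore differed from each other, and replicate 1, with far more peaks in all, had the lower share. A share also depends on how many peaks its list has elsewhere, and the intervals cover counting error only.

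**Figure D1:**
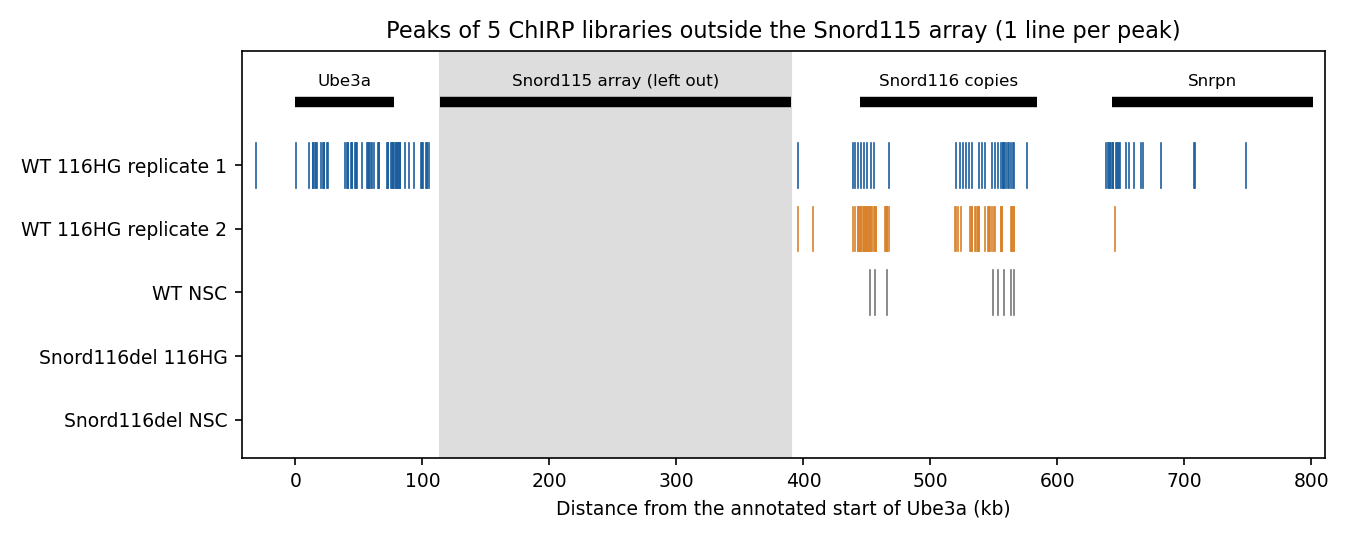
Position of each of the 201 peaks in the 5 libraries, in kb from the annotated start of Ube3a, with 1 vertical line per peak and the Snord115 array shaded and left out. Replicate 1 has peaks on the Ube3a side and along the downstream part of Snrpn where replicate 2 has 0 and 1, and WT NSC has 8 peaks, all over the Snord116 copies.

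Fisher's exact test, two-sided, compared the share of each 116HG list with that of the other lists, with Benjamini-Hochberg adjustment over 42 tests. It compares libraries and not conditions, and it treats neighbouring peaks as independent. Over all stretches, replicates 1 and 2 differed (odds ratio 0.250, adjusted p = 5.21e-16 by Fisher's exact test). Replicate 2 had a larger share than WT NSC (odds ratio 2.88, adjusted p = 0.00987 by the same exact test), than Snord116del with 116HG oligos (adjusted p = 0.00562) and than Snord116del with NSC oligos (adjusted p = 1.82e-07). By the same exact test, replicate 1 passed the threshold against Snord116del with NSC oligos (adjusted p = 0.0386), and did not against WT NSC (odds ratio 0.718, adjusted p = 0.911) or Snord116del with 116HG oligos (adjusted p = 0.676). Once peaks of a list closer than 1 kb were merged into single regions, replicate 2 no longer lay above WT NSC: its 70 peaks became 21 regions and the difference turned to -0.0577 percentage points. The difference between the replicates was no longer past the threshold either (65 and 21 regions, unadjusted p = 0.116 by Fisher's exact test). The calls against the Snord116del libraries were each lost under at least 1 alternative, by the same exact test, unadjusted. Against 116HG oligos, replicate 2 lost its call at 1 kb (p = 0.16 by this exact test). Against NSC oligos, merging at 1 kb kept the calls of replicate 2 (p = 0.00732) and replicate 1 (p = 0.033, same exact test). Merging at 10 kb ended both (p = 0.578 and p = 0.613, same exact test). The upper quartile of folds also ended that of replicate 1 (p = 0.402, same exact test).

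With the library as the unit, the 116HG libraries had a mean share of 0.393% ± 0.333 (SD, n = 2) and the controls 0.0731% ± 0.127 (SD, n = 3). The controls differ from each other in oligo or genotype, so their SD is not a spread between replicates. The test below treats them as 1 group. The exact permutation test over libraries gave p = 0.4, two-sided, and the smallest p this design allows is 0.2. That smallest value was reached for Snrpn and for the stretch between the arrays, where both 116HG libraries had peaks and all controls had 0. Replicate 2 had 1 peak in Snrpn. In both stretches a count of 0 in a control allows a share of 0.0822% or more. That lies above the share of either 116HG library, so neither stretch was set apart from the controls.

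**Figure D2:**
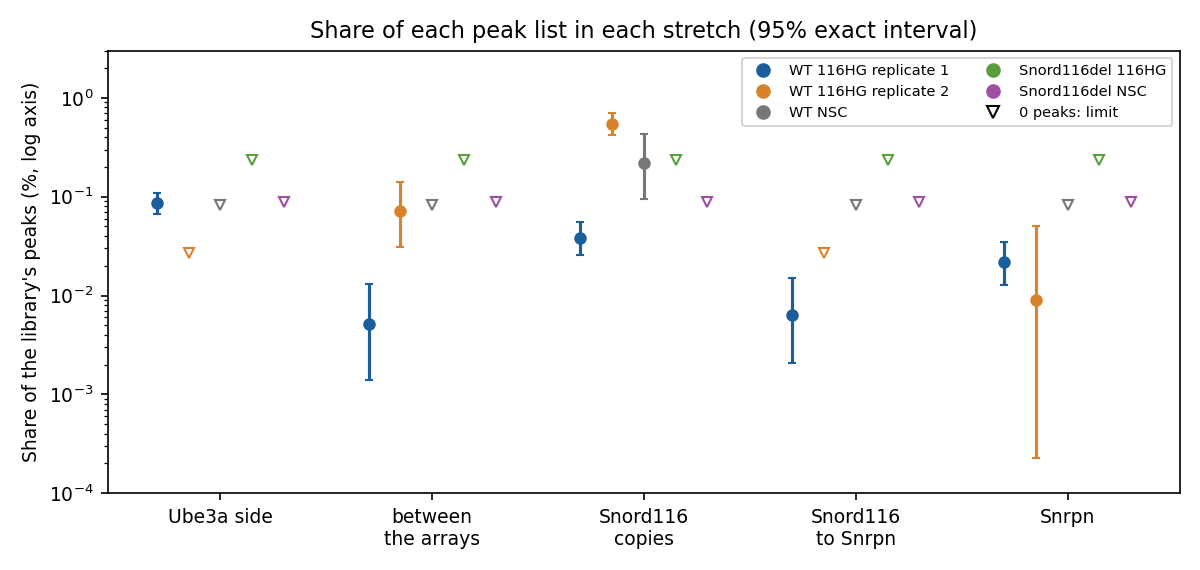
Share of each list that lay in each stretch, in percent on a log axis, with exact 95% intervals; open triangles give the share that a count of 0 allows. Over the Snord116 copies replicate 2 (0.547%) and WT NSC (0.219%) lie above replicate 1 (0.0384%), while on the Ube3a side replicate 1 alone has peaks.

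The replicates placed their peaks in different stretches. Of the 123 peaks of replicate 1, 67 lay on the Ube3a side, 4 between the arrays, 30 over the Snord116 copies, 5 between Snord116 and Snrpn, and 17 in Snrpn. Replicate 2 had 0, 8, 61, 0 and 1 in the same order. On the Ube3a side the 67 peaks made 0.0859% of replicate 1, against 0 in replicate 2, which allows up to 0.0269% (adjusted p = 0.0016 by Fisher's exact test). By Fisher's exact test this share was not set apart from WT NSC (adjusted p = 0.247) or from Snord116del with NSC oligos (adjusted p = 0.355). The 0.0859% of replicate 1 lay just above the 0.0822% that 0 peaks in WT NSC allow when taken as 3 counts. It lay below the upper end of the exact interval of WT NSC, 0.101%. The limits from 0 peaks in Snord116del, 0.0878% with NSC oligos and 0.234% with 116HG oligos, also lay above it. Over the Snord116 copies the order turned, with 0.0384% of replicate 1 and 0.547% of replicate 2 (odds ratio 0.0699, adjusted p = 5.87e-32 by Fisher's exact test), and replicate 1 also lay below WT NSC there (odds ratio 0.175, adjusted p = 0.0016). Replicate 2 lay above WT NSC over the copies (odds ratio 2.50, adjusted p = 0.0386 by Fisher's exact test), a call that was lost and turned in direction when peaks within 1 kb were merged. In Snrpn the 17 peaks of replicate 1 and the 1 of replicate 2 did not differ as shares (0.0218% and 0.00897%, odds ratio 2.43, adjusted p = 1 by Fisher's exact test), which does not show the shares to be alike. Merging peaks within 10 kb left 3 and 0 regions of replicates 1 and 2 on the Ube3a side and 3 and 2 over the copies, and ended both calls between the replicates. In the upper quartile of folds within each list, replicate 1 kept 6 peaks over the copies and WT NSC 0, which turned the direction of that comparison.

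The study treated a peak as replicated when the other WT 116HG list had a peak within 10 kb. By that rule 48 of the 123 replicate 1 peaks (39%) were replicated, beside 10.4% of that whole list, and 69 of the 70 replicate 2 peaks (98.6%), beside 38.1% of theirs. The share depended on the stretch. All 30 peaks over the Snord116 copies, all 4 between the arrays, all 5 between Snord116 and Snrpn and 9 of 17 in Snrpn were near a replicate 2 peak, and 0 of the 67 on the Ube3a side were. Over the copies replicate 2 had 0.684 peaks per kb of known bases, so a peak there could hardly fail the 10 kb rule. The shares of the whole lists do not allow for that density. The closest Ube3a-side peak was 39413 bp from a replicate 2 peak, and the median gap was 82440 bp. Of the 48 peaks, 14 (5 between Snord116 and Snrpn and 9 in Snrpn) had 1 replicate 2 peak alone within 10 kb, at chr7:67129360-67129488 in a Snrpn intron.

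**Figure D3:**
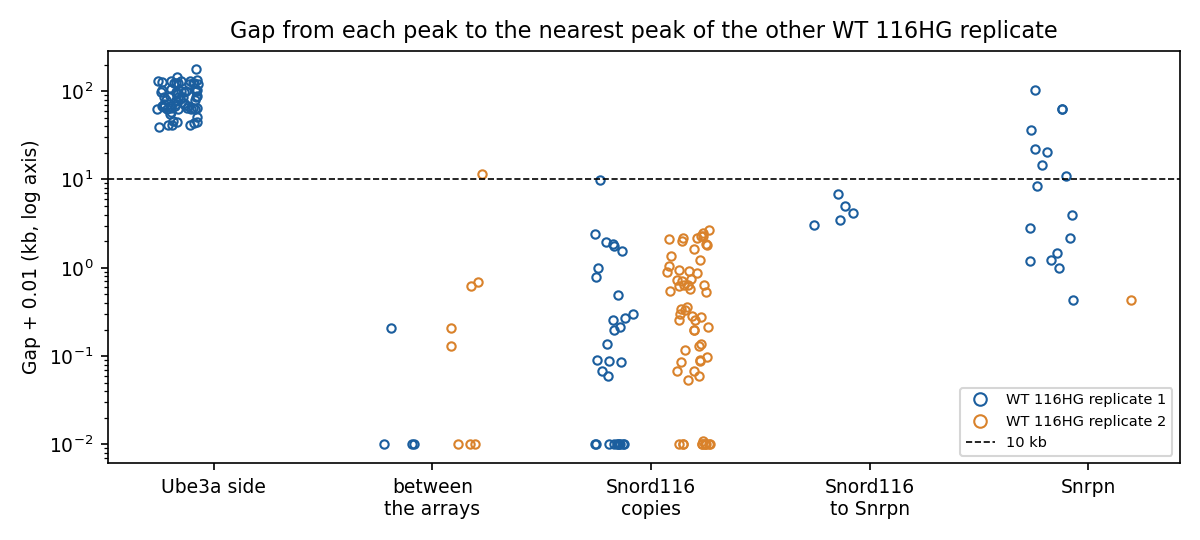
Gap in kb from each peak of a WT 116HG replicate to the nearest peak of the other replicate, on a log axis after adding 0.01 kb, so that overlapping peaks sit at the bottom; the dashed line marks 10 kb. All Ube3a-side peaks lie above the line, from 39413 bp to 175729 bp, and overlaps occur between the arrays and over the Snord116 copies.

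Direct overlap was rarer. Of the replicate 1 peaks, 13 (10.6%, beside 2.45% of the whole list) shared at least 1 base with a replicate 2 peak, and 13 of the replicate 2 peaks (18.6%, beside 17.2%) shared 1 with replicate 1. They formed 14 pairs that shared 2266 bp, 3 pairs between the arrays and 11 over the Snord116 copies. The replicate 2 share was thus close to that of its whole list. For replicate 1 the whole-list share does not allow for the 24.2% of known bases over the copies that replicate 2 peaks covered.

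Between the arrays, pairs 1 and 2 printed above were the clearest overlaps in unique sequence. In pair 1 the replicate 1 peak shared 142 bp with the replicate 2 peak at chr7:66923221-66923362, which lay wholly inside it. In pair 2 the shared stretch was 156 bp, with the replicate 2 peak at chr7:66924969-66925183. Both replicate 1 peaks had a fold over input of 328, above 98.9% of their list, and their middle 32 bases occurred once in the genome. The third pair, at chr7:66927070-66927153 and chr7:66927080-66927207, shared 74 bp at a fold of 36.6, and the middle 32 bases of its replicate 1 peak occurred 11 times. Another replicate 1 peak, chr7:66880066-66880181 at fold 41.0, lay 196 bp from a replicate 2 peak. No annotated gene covered any of the 4, and no control library had a peak in this stretch. The replicates still differed here in share (0.00513% of replicate 1, 0.0718% of replicate 2, adjusted p = 0.000154 by Fisher's exact test).

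Pair 2 ended in letters like those of the peaks upstream of the Snord116 copies. Its sequence was 64.6% identical to the closest of 26 stretches of 160 bp taken from 250 bp upstream of the full-length copies, with a median of 63.4%. Pair 1 reached 48.1% at most, near the 48% by which pairs 1 and 2 matched each other. Identity was the share of bases left after the edit distance of a full-length alignment, and no level for unrelated sequence was set beyond these values.

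Over the Snord116 copies the 30 peaks of replicate 1 covered 11.4% of the known bases, the 61 of replicate 2 covered 24.2% and the 8 of WT NSC 1.62%. The peaks of replicate 2 were wider, with a median of 282 bp and a widest of 3259 bp, against a median of 231.5 bp in replicate 1 and 172.5 bp in WT NSC. The assembly leaves 50000 bases of this stretch unread, and 83.7% of the 32-base words in the rest occur more than once in the genome, with a median of 12 times. On the Ube3a side and in Snrpn the same shares were 14.5% and 13.1%.

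The middle 32 bases of a peak say whether a read of that length from there could be placed at more than 1 site. They occurred more than once for 26 of the 30 replicate 1 peaks (86.7%), 55 of the 61 replicate 2 peaks (90.2%) and 7 of the 8 WT NSC peaks over the copies. These shares lay close to the 83.7% of the stretch itself. How reads with several matches were placed is not given in the sources used here, and whether a peak over 1 copy holds reads of another was not tested. Only 4, 6 and 1 peaks of the 3 libraries had a unique middle. Outside the copies repeats were fewer, with 5 of 67 replicate 1 peaks on the Ube3a side and 4 of 17 in Snrpn. With the middle 50 bases these fell to 1 of 67 and 1 of 17. Over the copies the 50-base counts were 25 of 30, 53 of 61 and 7 of 8.

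The peaks of replicate 1 recurred at 1 place of the repeat unit. The copies follow each other at 2509 to 2558 bp in 23 of the spacings, with a median of 2527 bp. Of the 29 replicate 1 peaks that lay within 2500 bp upstream of a copy, 22 (75.9%) had their midpoint 250 to 500 bp upstream of the 5′ end of the snoRNA, 1 at each of 22 copies, and this range was chosen after the positions were seen. The median midpoint was 371 bp upstream, with quartiles of 330.5 and 473.5 bp. Only 2 replicate 1 peaks touched a snoRNA copy. In replicate 2, 11 of 60 peaks (18.3%) had a midpoint in the same range, the median was 732 bp with quartiles of 281.8 and 1416 bp, and 11 peaks touched a copy. Of the 8 WT NSC peaks, 1 lay in the range and 1 touched a copy.

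**Figure D4:**
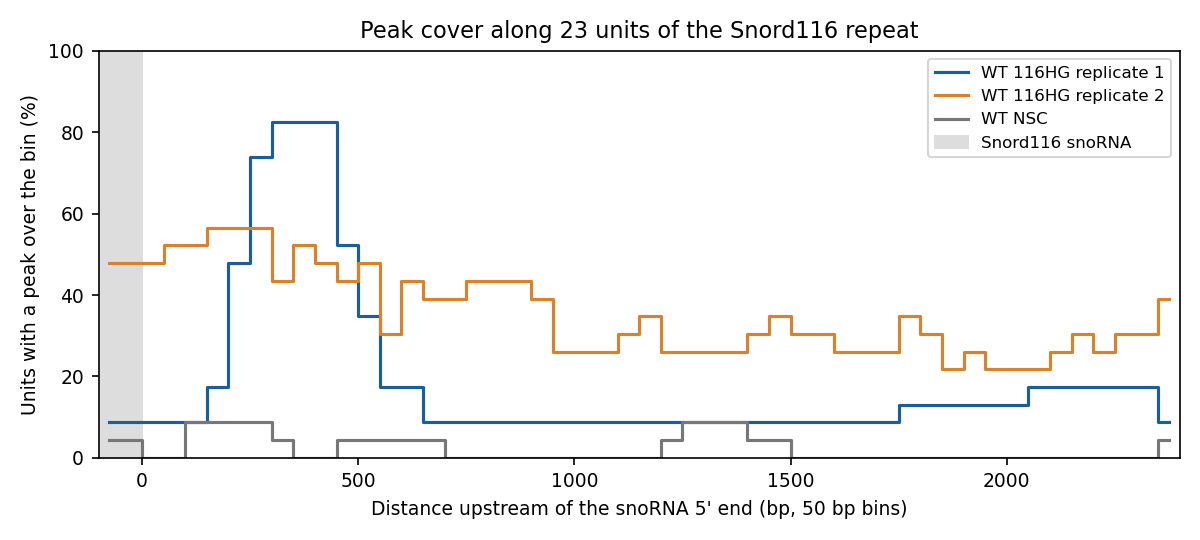
Percentage of 23 Snord116 units with a peak over each 50 bp bin, by distance upstream of the snoRNA 5′ end, for the libraries with peaks there. Replicate 1 rises from 8.7% over the snoRNA to 82.6% at 300 to 450 bp upstream and returns to 8.7%, with a lower rise to 17.4% from 2050 to 2350 bp, while replicate 2 stays between 21.7% and 56.5% and WT NSC reaches 8.7% at most.

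The edges of the 22 peaks were partly shared. The near edge, on the side of the snoRNA, ranged from -87 to 429 bp upstream with a median of 250.5 bp, and lay between 240 and 260 bp in 11 of the 22. The far edge ranged from 381 to 695 bp with a median of 475 bp, and lay between 400 and 420 bp in 8. The letters GTAAG, which can form the start of an intron, were found on the transcribed strand between 240 and 260 bp upstream of all 26 full-length copies, and on either strand in 3.65% of 38229 windows of 21 bp tiling the region. Both the letters and this range were taken from the peaks after they were seen, and the copies are near repeats of each other, so the matches are a description and not 26 independent ones. Over the 160 bp from 250 bp upstream, pairs of copies were identical at a median of 96.2% of bases (88.1% to 100%), compared with 98.9% in the snoRNA, 91.2% over the 160 bp from 700 bp upstream and 75.6% over those from 1200 bp. Replicate 1 covered 8.7% of units in the bins from 700 to 1750 bp upstream, and 13% to 17.4% from 1750 to 2350 bp. Whether the likeness of the copies bears on where peaks were called was not tested. Repeated words were spread over the whole unit, and made 88.5% of words at 300 to 350 bp upstream and 92.1% at 1100 to 1150 bp, where replicate 1 covered 82.6% and 8.7% of units.

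Copies 6, 14, 18 and 27 had no replicate 1 peak. Copy 27, of 89 bp, lies apart from the rest, 18279 bp beyond copy 26. The highest folds in this stretch were 233 at chr7:67047440-67047605 upstream of copy 25, 123 at chr7:67042053-67042566 over copy 23 and 120 at chr7:67044579-67045361 over copy 24. The widest overlaps of the replicates were 380 bp near copy 26, where the replicate 1 peak chr7:67050018-67050397 (fold 92.6) lay within chr7:67049817-67050430, 270 bp near copy 22 at chr7:67039850-67040119 (fold 39.5), and 245 bp near copy 15 at chr7:67022175-67022419 (fold 48.9). The peak upstream of copy 1 (fold 93.1), whose middle occurred once in the genome in both lists, lay wholly within a replicate 2 peak and shared 161 bp.

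The peak upstream of copy 3, at fold 32.8, also lay over the Ipw promoter. Ipw is a non-coding RNA of the same paternal transcript. Its RefSeq promoter window, 250 bases before to 50 after the start in GRCm38, was found letter for letter in mm9 at chr7:66934199-66934498 on the minus strand, and both the replicate 1 peak and the replicate 2 peak chr7:66934186-66934741 overlapped it. The replicate 1 peak lay 252 to 411 bp upstream of copy 3, and those at copies 1 and 17 lay at 250 to 410 and 251 to 410 bp. Its middle 32 bases occurred once in the genome, and those of the replicate 2 peak 24 times. Whether the overlap was particular to Ipw was not tested.

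All 8 control peaks lay over the Snord116 copies and came from WT NSC. Their folds over input were 23.55, 23.55, 22.57, 20.33, 21.53, 20.96, 27.63 and 20.72 in chromosome order, with a median of 22.05 beside 27.1 for the whole WT NSC list. The 8 peaks were thus among the lower ones of their list, and 1 lay above its median. Of them 3 overlapped a replicate 1 peak and 4 a replicate 2 peak, which makes 5 of the 8 (62.5%) with a peak of either 116HG library, beside 13.6% of the whole WT NSC list. The whole list is not a like base here. Over the copies, where all 8 lay, replicates 1 and 2 covered 11.4% and 24.2% of known bases. The peak chr7:67047341-67047492 overlapped both replicates near copy 25, where its middle word occurred 23 times, and chr7:67049953-67050104 overlapped both near copy 26, where it occurred once.

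The fold over input is the authors' value for each peak, and the list of replicate 2 has none. In the replicate 1 list 68.8% of all folds were whole multiples of 10.26, within 0.03, so most folds moved in steps of that size. Of the 123 peaks here 56 (45.5%) had such a fold: 35 of 67 on the Ube3a side, 3 of 4 between the arrays, 5 of 5 between Snord116 and Snrpn, 13 of 17 in Snrpn and 0 of 30 over the Snord116 copies. A fold of 51.3 is therefore 5 steps, and folds that differ by less than a step are not told apart by it.

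Replicate 1 folds had a median of 51.3 over the 123 peaks beside 55.3 for the whole list, and 27 of them (22%) lay in the upper quartile of the list, above 85.4. The stretches differed. The median was 44.9 on the Ube3a side (21.4 to 144), 55.25 over the Snord116 copies (24.9 to 233), 61.6 between Snord116 and Snrpn (30.8 to 103) and 154 in Snrpn (32.7 to 482). In the upper quartile were 8 of 67, 6 of 30, 1 of 5 and 10 of 17 peaks in the same order. The 4 peaks between the arrays had the highest median, 184.7 (36.6 to 328), and 2 of them lay in the upper quartile. Snrpn was the only stretch with most of its peaks in the upper quartile.

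In Snrpn 11 of the 17 replicate 1 peaks (64.7%) had their midpoint in an exon, beside 71.6% of the whole replicate 1 list, so the share was no higher here than in the list. This is 5.01 peaks per kb of exon, and the 6 in an intron are 0.0386 per kb. The exon peaks had a median fold of 287 (71.8 to 482) and the intron peaks 46.2 (32.7 to 82.1), so the ranges overlapped at a single exon peak. The 10 exons from the Snurf start to the 3′ end each held at least 1 peak, and the 2 exons farther upstream, at chr7:67277136-67277283 and at the 5′ end of the gene, held 0. The highest folds were 482 at chr7:67127925-67128171 over the last exon, 416 at chr7:67149913-67150068 over the first exon of Snurf, and 390 at chr7:67144191-67144402 over the exon next to it. The 22698 bp from the Snurf start to the 3′ end held 12 peaks with a median fold of 277, and the 135020 bp upstream held 5 with a median of 51.3.

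Peak edges were compared with exon edges. Over all 123 peaks 10 (8.13%) matched both edges of an annotated exon within 20 bp, which is a smaller share than the 21.4% of the replicate 1 list, and 0 of the 70 replicate 2 peaks did, beside 0.0987% of that list. For 9 Snrpn exons with a single peak, the larger of the differences between peak edge and exon edge was 3 to 103 bp, with a median of 13 bp, and 6 of the 9 peaks had both edges within 20 bp. The closest was the Snrpn peak printed above, which started 3 bp before and ended 1 bp after an exon of 139 bp. For 8 Ube3a exons with a single peak the median was 33 bp (10 to 304 bp), and 4 of 8 had both edges within 20 bp.

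The Ube3a side was less tied to exons. Ube3a held 45 of its 67 peaks, 21 lay after the gene and 1 before it. The stretch within Ube3a (0.577 peaks per kb) and the stretch after it up to the Snord115 array (0.592 per kb) were about equally dense, although the latter has 1 annotated gene, C230091D08Rik of 109 bp, which no peak touched. The 42092 bp before Ube3a had 0.0238 per kb. Within Ube3a, 16 peaks had their midpoint in an exon (3.14 per kb, median fold 51.3) and 29 in an intron (0.398 per kb, median fold 41.0), and 10 of 13 exons, with overlapping exons of different transcripts joined, held a peak. The highest folds on this side were 144 at chr7:66452934-66453132, before the gene, then 126 at chr7:66563435-66563870, and 123 at both chr7:66564157-66564552 and chr7:66565955-66566215, just beyond its 3′ end. All of them had a middle found once in the genome.

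Exons took a smaller share of these peaks than of the list. Of the 123 replicate 1 peaks 28 (22.8%) had their midpoint in an exon, beside 71.6% of the whole list. They were 16 on the Ube3a side, 11 in Snrpn and 1 between Snord116 and Snrpn, the peak chr7:67125703-67125897 (fold 61.6) over the snoRNA gene Snord107. In replicate 2 the 6 exon peaks (8.57%, beside 2.27% of the list) were all over Snord116 copies. GENCODE vM1, the annotation of this build, has no exon for the 116HG host RNA itself, so the recurring peaks upstream of the copies count as outside exons.

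The other start sites were compared as well. The Ube3a promoter window, chr7:66483870-66484169, overlapped the replicate 1 peak chr7:66484149-66484337 at fold 61.6. The shared window of Snurf and Snrpn, chr7:67150036-67150335, overlapped the peak of fold 416 named above, and a Snrpn start farther upstream, chr7:67192815-67193114, overlapped chr7:67192782-67192878 at fold 82.1. The window of the most distal Snrpn start within the gene, chr7:67285062-67285361, overlapped 0 peaks. No replicate 2 or control peak overlapped the windows of Ube3a, Snurf or Snrpn.

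Between Snord116 and Snrpn the 5 replicate 1 peaks all lay within chr7:67122425-67126346, next to Snrpn. Their folds were 82.1, 103, 41.0, 61.6 and 30.8 in chromosome order, and each had a middle found once in the genome. The snoRNA gene Snord64, in the same stretch at chr7:67123694-67123760, was touched by 0 peaks. The peak of highest fold, chr7:67124002-67124401, lay beside it.

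RNA levels of the window's genes were given as 1 FPKM value per group of mouse cortex, from WT and Snord116del mice at 6 h (light) and 16 h (dark) after lights on, with no spread between mice and so no test. FPKM is scaled by length, so genes can be compared. For Snrpn the values were 65.3 in WT and 105 in Snord116del at 6 h, and 90.0 and 149 at 16 h. For Ube3a they were 1.55 and 5.41 at 6 h, and 0.582 and 0.761 at 16 h. Snrpn, the gene with the higher peak folds, also had the higher FPKM of the pair in all 4 groups. By number of replicate 1 peaks the order was the opposite, with 45 in Ube3a (0.577 per kb) and 17 in Snrpn (0.108 per kb). The RNA came from cortex and the peaks from brain, and a link between them was not tested. Snurf was given 18.9 and 29.1 at 6 h and 9.68 and 0.255 at 16 h, and it shares its reads with Snrpn, so the split between them is uncertain. Ipw, which lies inside the array, had 21.6 and 3.40 at 6 h and 3.17 and 1.82 at 16 h. Snord116 and Snord64 were listed at 0 in all 4 groups, WT included. These values do not show that the snoRNAs were absent, since whether the RNA libraries could measure such short RNAs was not tested.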

How the data were processed

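Peaks were taken from 5 deposited ChIRP-seq lists. Per the labels and the paper's methods, the authors aligned reads with Bowtie2 2.0.0 to mm9, called peaks with MACS 1.4.2 in each library against 1 WT input library, and filtered them on false discovery rate and on fold over input. Column 4 of 4 deposited lists is that fold, a ratio for each peak, while the list of WT 116HG replicate 2 holds positions only and no other value. The smallest share of reads aligned in replicate 2, and read depth per peak was not analysed here. The deposited RNA table holds 1 FPKM value per group and gene, made by the authors with TopHat2 2.0.5 and Cuffdiff 2.0.2, and its log2 fold change and q-value columns, the authors' own comparisons, were not used. Start positions were raised by 1 to count from 1.

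A peak was put in the stretch holding most of its bases. Annotation was GENCODE vM1 on NCBIM37, the assembly of mm9. RefSeq promoter windows of GRCm38 were placed by exact match. A peak's middle was its central 32 bases, counted on both strands of the whole genome. Shares have exact Clopper-Pearson 95% intervals, and a count of 0 was taken to allow 3 counts. Shares were compared by Fisher's exact test and by exact permutation over libraries. Named were the genes of the window, the 3 highest folds per stretch, overlapping pairs (the 3 widest per stretch in full) and all control peaks. The members, lists and rules were chosen with earlier results of these data known. Overlap and test steps were tested on simulated data. Alternatives changed the distance, merging, fold minimum, word length, exon rule and library. Python 3.11.15, numpy 2.4.6, scipy 1.17.1, statsmodels 0.14.6, numba 0.67.0 and matplotlib 3.10.9 were used.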

Additional observations from a re-analysis of the deposited data

How the results depend on the processing

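The share of all peaks here in replicate 1 minus that in replicate 2, -0.47 percentage points, fell to -0.0693 (Fisher's exact p = 0.116) with peaks closer than 1 kb merged and to -0.00487 (p = 0.768) with 10 kb, no longer past the threshold, and at 10 kb the calls on the Ube3a side (0.0115) and over the Snord116 copies (-0.0101) were lost too. Fewer separate counts enter these tests. Replicate 2 minus WT NSC turned from 0.409 to -0.0577 (1 kb) and -0.0546 (10 kb) over all stretches, and from 0.328 to -0.115 and -0.0762 over the copies. With the upper quartile of folds alone, replicate 1 minus WT NSC turned to 0.138 over all stretches and 0.0308 over the copies, and the cause was not tested. Without either 116HG replicate in turn, the mean share of the 116HG libraries minus the controls ran from 0.0845 to 0.555 over all stretches, from 0 to 0.0859 on the Ube3a side, from 0.00897 to 0.0218 in Snrpn and from -0.0347 to 0.474 over the copies, where it was negative without replicate 2. Peaks near the other replicate fell from 48 to 13 by direct overlap and to 16 in the upper quartile for replicate 1, and from 69 to 13 by direct overlap for replicate 2. Replicate 2 exon peaks rose from 6 to 11 when any overlap counted. The other 48 recomputed main values kept their direction and their side of the threshold, or stayed within 1.5 times for counts, except the 0 on the Ube3a side without replicate 1, which has no direction. All 5 comparisons with a Snord116del library that passed the threshold lost their call under at least 1 alternative, in 8 settings: over all stretches replicate 1 against NSC oligos (10 kb, upper quartile), and over all stretches and over the copies replicate 2 against 116HG oligos (1 kb, 10 kb) and against NSC oligos (10 kb). Counts over the copies fell with unique middles alone. The upper quartile could not be run for replicate 2, which has no folds. No paired analysis was possible because each control group has 1 library and the lists carry no shared numbers. Small control lists limit what a count of 0 can show.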
